A study of Homo sapiens with 15 samples.

Results

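Cultured Müller glial cells induced from retinal organoids (iMGCs) were compared with the neural retina of young organoids, to see which programs of retinal progenitors the cultured glia share with early retinal tissue and which they lack. The 9 libraries compared, of 15 in the whole series, were chosen by their labels alone: 3 of NR layers from retinal organoids at day 70 (D70-ROs), 3 of iMGCs at passage 1 (P1 iMGCs) and 3 of iMGCs at passage 5 (P5 iMGCs). All 9 descend from BC1-GFP, a single human induced pluripotent stem cell (hiPSC) line with a GFP reporter, so they speak for 1 genetic background and 1 line. The D70-RO libraries hold NR layers pooled from several organoids, grown in medium with fetal bovine serum in the last weeks before collection. The iMGCs came from NR layers of organoids at day 150 (D150-ROs), dissociated with accutase, plated on Matrigel in DMEM with fetal bovine serum and taken on day 5 of passage 1 or of passage 5. They were enriched by their growth in this medium, and no sort or reporter for Müller cells was described. The 2 arms therefore differ in organoid age, in tissue against flat culture and in medium at once, and these cannot be told apart. It is not given whether the P5 cultures descend from those sampled at P1. The methods give 3 independent experiments for each group, but the description of the whole data set gives fewer for organoids, so the p-values may measure a spread that is partly technical. The same description speaks of more than 1 sequencing company and of a correction between batches, and since no library is labelled with its batch, batch and group cannot be told apart.

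Retinal progenitors are the dividing cells of the neural retina. Eye field transcription factors such as RAX and PAX6 keep their retinal identity, Notch signalling through HES genes holds back neurogenesis, and bHLH factors such as ATOH7 and NEUROG2 start it. Müller glia are the last cell type born from these progenitors. They keep several progenitor genes, among them SOX2, SOX9, VIM and NES, and in fish they can return to a progenitor state after injury, which is why progenitor genes in cultured human Müller glia draw interest.

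Levels are given in FPKM, fragment counts scaled to transcript length and library size, as the authors computed it, so that levels of different genes can be set side by side. D70-ROs and iMGCs stand in separate deposited tables, and every level set across the groups crosses these tables. FPKM summed to 545712 to 570482 over all genes in D70-ROs and to 418922 to 428249 in iMGCs, so a gene held in the count-based test stands somewhat lower in iMGCs by FPKM. Fold changes are on the log2 scale, iMGCs over D70-ROs, from edgeR's quasi-likelihood test on the deposited expected counts, with P1 and P5 iMGCs as separate groups of equal weight. A gene was called a differentially expressed gene (DEG) at an adjusted p under 0.05 (Benjamini-Hochberg, over all genes tested) and a change of at least 2-fold. A gene was counted as held within 2-fold when it was no DEG, the 95% interval of its change lay wholly inside 2-fold in either direction and it reached 1 FPKM in all 9 libraries. The D70-RO libraries held 11349600 to 19722949 expected counts and the iMGC libraries 15147424 to 17688638. D70-RO replicate 2 was the shallowest. Replicates of 1 group correlated at 0.977 to 0.996 (Pearson's r of log2(FPKM + 1) across genes, which are not independent), P1 with P5 libraries at 0.986 to 0.987 and iMGC with D70-RO libraries at 0.652 to 0.680. D70-RO replicate 2 also stood apart, at 0.981 and 0.977 with replicates 1 and 3, which correlated at 0.993. The 10 most abundant genes took 14.6% to 16.5% of the counts in iMGCs and 8.19% to 9.92% in D70-ROs, and after TMM scaling the median change over all genes was -0.08. The change rose with gene length: the median change was 0.435 in the 3203 longest genes and -0.436 in the 3203 shortest. A fit with this length trend removed is quoted where it ended a call.

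Of 12812 genes tested, 3103 (24.2%) were lower in iMGCs and 2741 (21.4%) higher, while 5446 (42.5%) were held within 2-fold. In 9927 genes (77.5%) the FPKM of the 6 iMGC libraries did not overlap those of the 3 D70-RO libraries. Every member or other gene named below as lower or higher is among them, and for other genes whose levels are given an overlap is stated. The share of higher among all calls was 46.9%, but 37.4% with upper-quartile scaling and 28.7% with limma on log2(FPKM + 1), which moved the median change over all genes to -0.31 and -0.46. Calls of a rise near 2-fold therefore depend on the scaling. The 14 progenitor lists hold 248 genes, of which 225 reached 1 FPKM in at least 3 libraries and were tested. Of these, 133 were lower, 34 higher and 37 held within 2-fold, with a median change of -1.66. The other 23 of the 248 were too low to test. Among all genes tested, 1186 (9.26%) were lower and under 1 FPKM in every iMGC library, and 63 of the 225 progenitor genes were. Such genes entered the test only by reaching 1 FPKM in all 3 D70-ROs, so the filter nearly fixed their direction. In the other direction, 548 of all genes and 14 of the progenitor genes were higher and under 1 FPKM in every D70-RO. They passed the filter only through the iMGCs, with the same limit. Without the shallow D70-RO replicate 2 the progenitor counts were 134 lower, 36 higher and 42 within 2-fold.

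**Figure D1:**
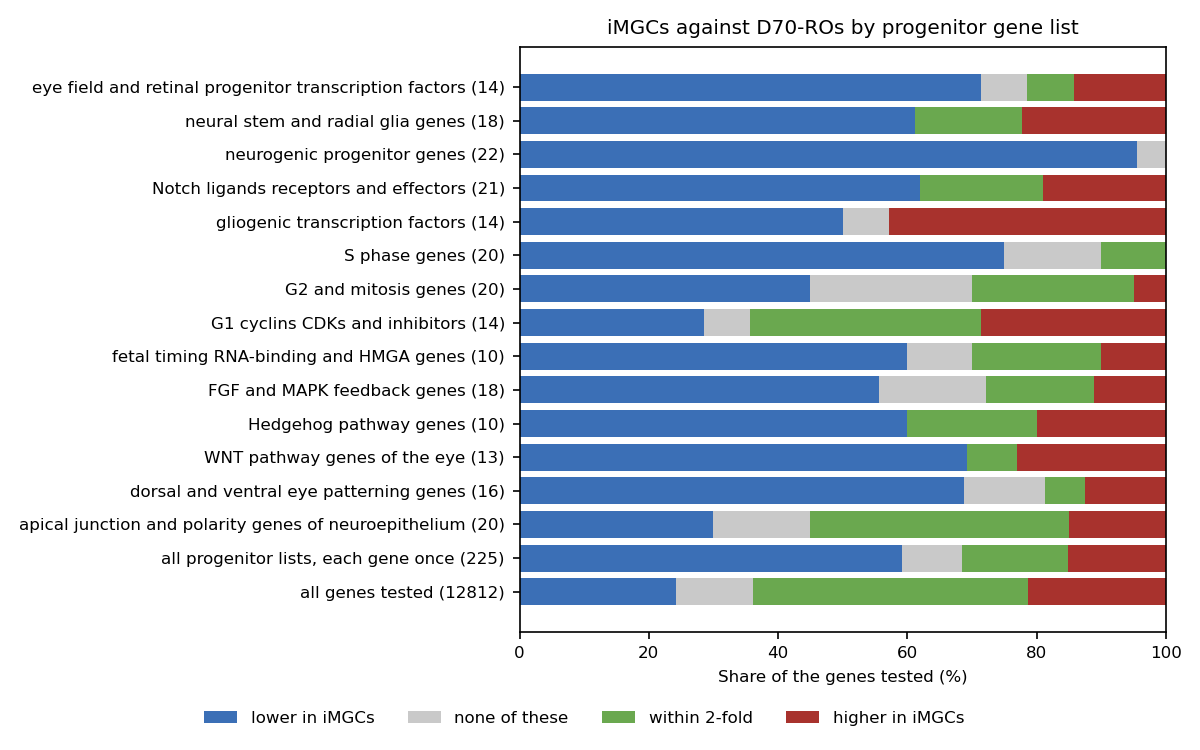
Share of the genes tested (%) that were lower in iMGCs, higher, held within 2-fold or none of these, for each of the 14 progenitor lists, for all of them with each gene once, and for all 12812 genes tested, with the number tested in parentheses. The neurogenic list is almost wholly lower (21 of 22, against 24.2% of all genes). Among the 14 lists, the apical junction list (8 of 20) and the G1 list (5 of 14) have the largest shares within 2-fold. Neither exceeds the 42.5% of all genes that were held.

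In bulk RNA, fewer cells of a type and less RNA per cell cannot be told apart, and this holds for every level below. The cells labelled as Müller glia were checked against 18 genes of Müller differentiation, of which 15 were tested, 9 lower than in D70-ROs, 5 higher and none within 2-fold. Their summed level was 734 to 1159 FPKM in D70-ROs and 492 to 677 in iMGCs. RLBP1, the retinaldehyde-binding protein of mature Müller glia, had 1 count over all 6 iMGC libraries, against 1.34, 1.56 and 0.58 FPKM in D70-ROs and a mean of 33.5 FPKM in D150-ROs. AQP4, the water channel of Müller endfeet, had no count in iMGCs and at most 0.08 FPKM in D70-ROs. CA2, carbonic anhydrase, lay at 0.15 FPKM or less in iMGCs. KCNJ10, the potassium channel Kir4.1, lay at 0.04 FPKM or less. GLUL, glutamine synthetase, was at 98.6, 131 and 100.3 FPKM in D70-ROs and at 12.2 to 15.2 (median 14.2) in iMGCs, all below the tissue (change -2.52, 95% interval -2.73 to -2.29, adjusted p = 2.49e-10 by edgeR). CLU, the chaperone clusterin, was also lower (change -3.54). The members higher in iMGCs were CD44, the hyaluronan receptor, at 64.9 to 83.3 (median 75.8) FPKM against 1.97, 2.65 and 1.58, the small heat shock protein CRYAB, the calcium-binding S100A16, the secreted phosphoprotein SPP1 and DIO2, a deiodinase. RLBP1, AQP4, KCNJ10 and CA2 were thus at or near 0 in these cells, while 5 other members were higher. By protein staining, the paper reports nearly all passaged cells from older organoids positive for SOX9, vimentin, nestin and glutamine synthetase. CRALBP, the protein of RLBP1, was negative there from passage 1. The paper's account of the cells also rests on ultrastructure, on responses to glutamate and on RNA-seq. In that RNA-seq it reports VIM, CRYAB, APOE and CCL2 enriched in iMGCs over D150-ROs, a comparison not made here. Only RNA is compared here, and the name iMGC is used below only as the label given.

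Genes of mesenchymal and smooth muscle cells moved the other way. Of 19 mesenchymal and fibroblast genes tested, 17 were higher in iMGCs and none lower. The summed level of the list was 80.98 to 88.7 FPKM in D70-ROs and 13340.0 to 16080.0 in iMGCs. Fibronectin (FN1), whose levels are given below, made up most of this sum in iMGCs. All 11 smooth muscle and pericyte genes tested were higher, at a summed 70.9 to 91.7 FPKM in D70-ROs and 2839 to 3362 in iMGCs. Of the genes called higher, 9 of the 17 and 3 of the 11 were under 1 FPKM in every D70-RO. These passed the filter only through the iMGCs, which nearly fixed their direction. With no filter, 17 of the 20 mesenchymal and 11 of the 12 muscle genes were higher and none lower. COL1A1, a chain of type I collagen, was at 1.39, 1.19 and 2.23 FPKM in D70-ROs and at 1946 to 2352 (median 2078) in iMGCs. SNAI2, a transcription factor of epithelial-to-mesenchymal transition, was at 0.16, 0.13 and 0.11 and 43.1 to 52.4 (median 46.5) FPKM. PDGFRA of the mesenchymal list and MYH11 of the muscle list, a myosin of mature smooth muscle, stayed under 1 FPKM in every library. The part of these cells or of this state in the results below was not tested. The neuronal lists fell: all 11 photoreceptor genes tested were lower, 9 of them under 1 FPKM in all iMGC libraries, and 11 of 13 ganglion cell genes were lower, the others, RBPMS and THY1, being higher. Members under 1 FPKM in all iMGC libraries passed the filter only through the D70-ROs, which nearly fixed their direction. With no filter, 13 of the 14 photoreceptor genes were lower. The summed level of the 14 photoreceptor genes was 369 to 382 FPKM in D70-ROs and 1.75 to 3.61 in iMGCs. Few genes of 7 further lists were tested: 4 of 12 pigment epithelium, 5 of 11 lens, 2 of 7 endothelial and 2 of 10 pluripotency genes. Of the Schwann cell, astrocyte and forebrain lists, 3 of 8, 2 of 7 and 3 of 11 were. None of the genes tested was higher, but with no filter 4 pigment epithelium genes were. The summed level of each of these lists was lower in each iMGC library than in each D70-RO library. Of the 13 amacrine and horizontal cell genes, 8 were tested, 6 of them lower and 2 within 2-fold. With no filter, 11 of the 13 were lower. No microglia gene reached 1 FPKM in any of the 9 libraries.

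Most eye field and progenitor transcription factors were much lower in iMGCs: 10 of 14 tested, 5 of them under 1 FPKM in every iMGC library. RAX (chr18:59267035-59274086, GRCh38, GENCODE 29), which sets up the eye field, was at 168, 202 and 159 FPKM in the 3 D70-ROs and had no count in any iMGC library. That is at least 11456-fold lower, taking 3 counts over the 6 libraries as the floor. D150-ROs, the tissue from which the cells were taken, still held a mean of 76.5 FPKM of RAX. SIX6, a homeobox factor of retina and optic nerve, was at 122, 163 and 123 FPKM in D70-ROs and 0.95 or less in iMGCs, with 2 counts over the 3 P1 libraries and 121 over the 3 P5 libraries. OTX2, a factor of early eye and photoreceptor development, was at 127, 132 and 137 FPKM in D70-ROs, at 0.31, 0.29 and 0.25 in P1 iMGCs and at 1.34, 1.56 and 1.64 in P5 iMGCs. NR2E1 and PAX2 were lower as well and under 1 FPKM in every iMGC library.

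A second group of eye field factors was lower but present. PAX6, needed for the competence of progenitors to form every retinal type, was at 349, 357 and 379.7 FPKM in D70-ROs, 33.2, 28.8 and 29.9 in P1 and 41.4, 45.8 and 44.5 in P5 iMGCs. All iMGC values lay far below the tissue (change -2.72, 95% interval -2.85 to -2.60, adjusted p = 8.73e-13 by edgeR), and the level still ranked first in this list in iMGCs. SIX3 was at 71.8, 83.2 and 69.8 FPKM in D70-ROs and 4.12 to 6.77 (median 5.34) in iMGCs (change -3.33, 95% interval -3.53 to -3.14). LHX2, a LIM homeobox factor that progenitors and Müller glia share, was at 62.3, 83.2 and 59.01 FPKM in D70-ROs, 3.19, 3.15 and 2.96 in P1 and 1.75, 2.10 and 2.07 in P5 iMGCs, a change of -4.02 at P1 and -5.13 at P5, both against the same D70-ROs. MEIS1, a cofactor of progenitors, was lower too (change -2.68). MEIS2, its relative and an upstream regulator of PAX6, was the 1 member held within 2-fold, at 10.9, 13.9 and 12.04 FPKM in D70-ROs and 6.55 to 10.3 (median 9.81) in iMGCs (change 0.05, 95% interval -0.18 to 0.28). MITF, which directs pigment epithelium fate, was higher in iMGCs (change 2.24), at 2.99 to 4.50 (median 4.00) FPKM.

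**Figure D2:**
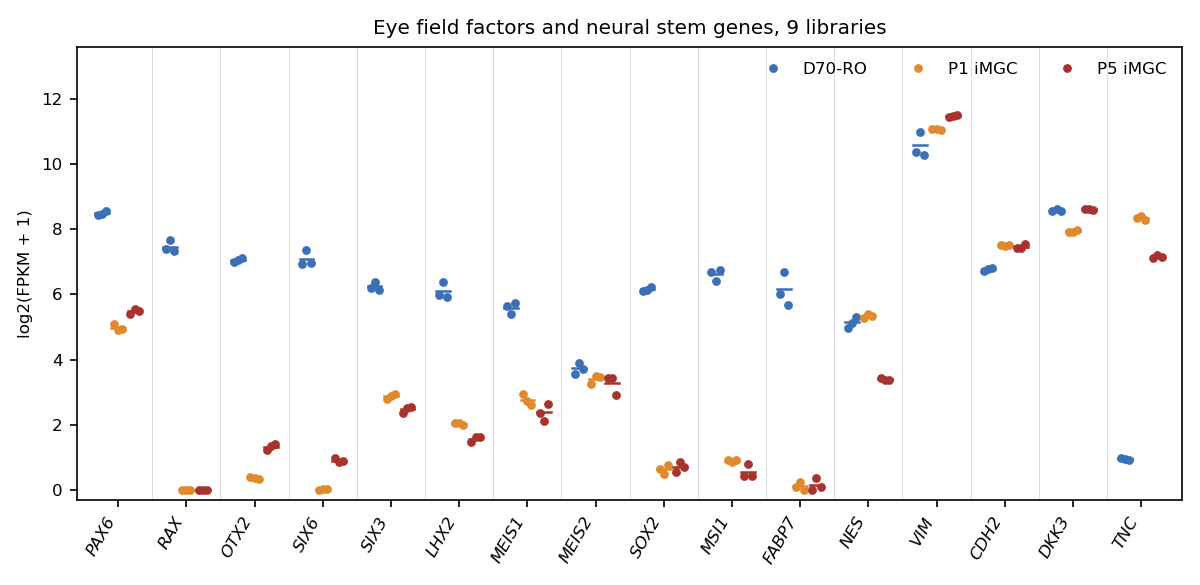
Level of eye field factors (left) and neural stem genes (right) as log2(FPKM + 1) in each of the 3 D70-RO, 3 P1 iMGC and 3 P5 iMGC libraries, with a bar at log2 of the group mean FPKM + 1. RAX sits at 0 in all 6 iMGC libraries, PAX6, SIX3 and LHX2 are lower but present, MEIS2 and DKK3 are held within 2-fold, and VIM and CDH2 lie above the tissue in every iMGC library.

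The neural stem and radial glia genes were split: 11 of 18 were lower, 4 higher and 3 held within 2-fold. SOX2, a factor of neural stem cells that Müller glia normally keep, was at 67.7, 69.00 and 74.4 FPKM in D70-ROs and at 0.41 to 0.81 (median 0.60) in iMGCs (change -6.42, 95% interval -6.67 to -6.16, adjusted p = 3.46e-13 by edgeR). D150-ROs held a mean of 69.9 FPKM of SOX2. The RNA-binding protein MSI1 (change -6.62), the apical membrane protein PROM1 (change -6.83), the radial glia lipid carrier FABP7 (change -8.99) and the receptor phosphatase PTPRZ1 (change -8.64) were under 1 FPKM in every iMGC library. FABP7 in D70-ROs was at 63.2, 101 and 49.9 FPKM. Its relative FABP5 was held within 2-fold (change -0.16, 95% interval -0.38 to 0.07), at 43.1, 30.9 and 42.7 FPKM in D70-ROs and 21.6 to 31.4 (median 24.98) in iMGCs, which overlap slightly. SLC1A3, the glutamate transporter GLAST of radial and Müller glia, was at 7.46, 10.8 and 8.89 FPKM in D70-ROs, 0.37, 0.39 and 0.36 in P1 and 1.12, 1.22 and 1.23 in P5 iMGCs.

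VIM, the intermediate filament vimentin, was at 1333, 2027 and 1245 FPKM in D70-ROs and 2141 to 2901 (median 2492) in iMGCs, with every iMGC library above the tissue (change 1.15, 95% interval 0.83 to 1.47). CDH2, N-cadherin, was at 105, 109 and 111 FPKM in D70-ROs and 171 to 187 (median 182) in iMGCs (change 1.11, 95% interval 0.99 to 1.23). Both calls lay close to the 2-fold limit and were lost with upper-quartile scaling, at 0.92 for VIM and 0.88 for CDH2, with limma on FPKM and, for VIM at P1 alone (0.92) and for CDH2 with the length trend removed (0.92). NES, the progenitor filament nestin (chr1:156668763-156677397), averaged to a change of -0.36, 95% interval -0.53 to -0.19, but the 2 passages changed in opposite directions. It was at 30.3, 34.05 and 38.8 FPKM in D70-ROs, 38.1, 40.99 and 39.6 in P1 and 9.82, 9.44 and 9.31 in P5 iMGCs. The P1 values lay at the upper end of the tissue or above it and the P5 values below it, with a change of 0.64 at P1 and -1.36 at P5. NES is the only progenitor gene counted within 2-fold whose passages differed by the test of the difference itself (P5 over P1 -1.996, adjusted p = 2.09e-07 by edgeR). DKK3, a secreted Dickkopf family protein of progenitors and Müller glia, was at 379, 398 and 374 FPKM in D70-ROs and 241 to 395 (median 319) in iMGCs, with ranges that overlap (change 0.21, 95% interval 0.09 to 0.34). TNC, the matrix glycoprotein tenascin-C, was near 1 FPKM in all D70-ROs (0.99, 0.91 and 0.89) and at 323, 341 and 309 in P1 and 138, 147 and 141 in P5 iMGCs (change 8.32, 95% interval 8.09 to 8.55). HOPX, a homeodomain protein of outer radial glia, was at 1.77 to 2.62 (median 2.23) FPKM in iMGCs and had 3 counts over the D70-ROs, a ratio whose counting interval runs from 4.20 to 8.06 on the log2 scale.

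The neurogenic progenitor genes were nearly all far lower. Of 22 tested, 21 were lower and none higher, 19 of the 21 were under 1 FPKM in every iMGC library, and 10 of the 24 members had no count there. Those 19 passed the filter only through the D70-ROs, so their lower calls were nearly fixed in advance. With no filter, 23 of the 24 members were lower and none higher. The median change was -8.70, or -7.20 with genes at 0 to 3 counts placed at their bound or count ratio. ATOH7, the bHLH factor needed for ganglion cells, was at 67.2, 78.9 and 62.6 FPKM in D70-ROs and had 2 counts over the 6 iMGC libraries, a ratio with a counting interval from -14.88 to -9.98 on the log2 scale. D150-ROs held a mean of 3.12 FPKM of ATOH7. NEUROG2 was at 2.31, 3.12 and 3.56 FPKM and OLIG2, another bHLH factor of progenitors, at 1.19, 1.03 and 1.62 FPKM in D70-ROs. Neither had a count in iMGCs, a fall of at least 162-fold and 79.3-fold. NEUROD1, NEUROD4, INSM1, FOXN4, PTF1A and DCX were without a count as well. HES6, which favours neuronal differentiation, was at 156, 195 and 147 FPKM in D70-ROs and 0.22 to 0.75 (median 0.395) in iMGCs (change -8.10, 95% interval -8.42 to -7.77). The SoxC factors, which act in newborn neurons and in many other cells, were the lower members that stayed above 1 FPKM: SOX4 was at 68.5, 67.5 and 77.6 FPKM in D70-ROs and 7.66 to 10.8 (median 9.10) in iMGCs (change -2.50, 95% interval -2.63 to -2.38), and SOX11 changed by -2.93. BTG2, an antiproliferative gene of progenitors about to divide into neurons and a p53 target, was at 18.3, 23.9 and 17.5 FPKM in D70-ROs and 7.02 to 8.20 (median 7.59) in iMGCs. Its change of -0.93, 95% interval -1.17 to -0.68 missed the 2-fold limit, and it passed with upper-quartile scaling (-1.16), with limma on FPKM and without D70-RO replicate 1 or 3 (-1.002 and -1.02).

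Notch signalling passes between neighbouring cells. A Delta or Jagged ligand on one cell opens a NOTCH receptor on the next, whose inner part enters the nucleus and, with RBPJ and a Mastermind protein (MAML), turns on the repressors of the HES and HEY families. Of 21 Notch genes tested, 13 were lower in iMGCs, 4 higher and 4 held within 2-fold. Among the ligands the Delta class fell below 1 FPKM in every iMGC library. DLL1 was at 7.37, 7.13 and 7.31 FPKM in D70-ROs and at most 0.19 in iMGCs (change -6.25, 95% interval -6.89 to -5.62). DLL3 was at 18.5, 23.4 and 21.2 FPKM in D70-ROs and 0.30 to 0.50 (median 0.36) in iMGCs (change -5.31, 95% interval -5.59 to -5.02). Its mean in D150-ROs was 2.59 FPKM. DLL4 was at 7.58, 7.16 and 8.29 FPKM in D70-ROs and 0.05 or less in iMGCs. JAG1 (chr20:10637684-10673999) moved the other way, from 2.91, 2.18 and 2.73 FPKM in D70-ROs to 22.4 to 25.9 (median 23.8) in iMGCs (change 3.63, 95% interval 3.45 to 3.82, adjusted p = 1.92e-12 by edgeR). JAG2 was lower (change -2.29) and, like the Delta ligands, under 1 FPKM in every iMGC library. The receptors differed among themselves. NOTCH1 was at 18.5, 17.01 and 20.7 FPKM in D70-ROs and 2.83 to 3.04 (median 2.96) in iMGCs (change -2.21, 95% interval -2.34 to -2.07). NOTCH2 was at 8.01, 7.71 and 9.88 FPKM in D70-ROs and 46.5 to 49.9 (median 47.6) in iMGCs (change 2.95, 95% interval 2.77 to 3.13). The first stood lower and the second higher than in any D70-RO. NOTCH3 stayed at 11.8, 12.5 and 13.96 FPKM in D70-ROs and 9.15 to 12.2 (median 10.9) in iMGCs, with overlap (change 0.21, 95% interval 0.04 to 0.39). Of the fringe enzymes that tune receptors to ligands, LFNG was higher (change 1.67), MFNG lower (change -5.95) and RFNG within 2-fold (change -0.12, 95% interval -0.38 to 0.13). RBPJ was at 47.9, 46.8 and 48.4 FPKM in D70-ROs and 31.7 to 39.1 (median 33.4) in iMGCs, the smallest change in the list (0.03, 95% interval -0.08 to 0.15), and of its partners MAML1 was held, MAML2 was higher and MAML3 lower.

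The effectors of the pathway were lower without exception among the 6 tested. HES1 was at 51.8, 80.4 and 52.99 FPKM in D70-ROs and 4.52 to 5.74 (median 5.195) in iMGCs (change -3.12, 95% interval -3.44 to -2.79, adjusted p = 1.29e-09 by edgeR). HES5 was at 20.03, 23.8 and 20.6 FPKM in D70-ROs and had 1 count over all iMGC libraries, a ratio with a counting interval from -16.26 to -8.48 on the log2 scale. HES4 was at 38.9, 41.4 and 36.6 FPKM in D70-ROs and 4.22 to 7.35 (median 6.24) in iMGCs (change -2.22, 95% interval -2.51 to -1.93). HEY1 (change -4.35), HEYL (change -3.91) and the feedback inhibitor NRARP (change -5.66) were under 1 FPKM in all iMGC libraries. HES1 and HES4 were the effectors that stayed above 1 FPKM in all 6.

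The sequence before the start sites of 5 of these 6 effectors is shown, all lower in iMGCs while RBPJ was held. HEY1 was not part of this search. The letters TGGGAA, the core of the motif that RBPJ binds, were searched on both strands of the 250 bases upstream of the start in RefSeq promoters (GRCh38.p14). They occur in 20.8% of 35116 promoters, and in 12.9% within the 150 bases nearest the start. The 150 bases nearest the start are printed 5′ to 3′ on the strand of each gene, with the core in capitals. HES1 is at chr3:194135998-194136147 (plus strand), HES4 at chr1:1000098-1000247 (minus strand), HES5 at chr1:2530264-2530413 (minus strand), HEYL at chr1:39639644-39639793 (minus strand) and NRARP at chr9:137302272-137302421 (minus strand).
HES1: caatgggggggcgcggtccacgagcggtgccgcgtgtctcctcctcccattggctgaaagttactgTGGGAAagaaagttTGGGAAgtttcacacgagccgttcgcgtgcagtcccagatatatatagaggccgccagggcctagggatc
HES4: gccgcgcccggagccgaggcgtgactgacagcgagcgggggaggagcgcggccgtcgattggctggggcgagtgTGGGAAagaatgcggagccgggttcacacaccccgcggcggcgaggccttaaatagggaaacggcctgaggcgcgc
HES5: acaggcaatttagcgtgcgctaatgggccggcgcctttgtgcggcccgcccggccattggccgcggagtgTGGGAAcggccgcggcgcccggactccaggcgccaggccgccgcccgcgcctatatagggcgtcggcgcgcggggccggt
HEYL: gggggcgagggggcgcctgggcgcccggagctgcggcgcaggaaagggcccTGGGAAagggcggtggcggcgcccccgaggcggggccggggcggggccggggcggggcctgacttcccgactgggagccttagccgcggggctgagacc
NRARP: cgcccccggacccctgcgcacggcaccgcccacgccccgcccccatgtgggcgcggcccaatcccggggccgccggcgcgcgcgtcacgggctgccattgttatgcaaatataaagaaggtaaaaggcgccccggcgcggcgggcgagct
HES1 held the core at positions -84 and -70 relative to the start, and HES4 held it at -76. HES5 held it at -224 and -80 and HEYL at -178 and -99, the more distant match in each being on the opposite strand and outside the bases printed. In HES1, HES4 and HES5 a match read on the strand of the gene began 70 to 84 bases before the start. NRARP had no match in these 250 bases, and its change was -5.66. A match is a run of letters and not a measured site.

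**Figure D3:**
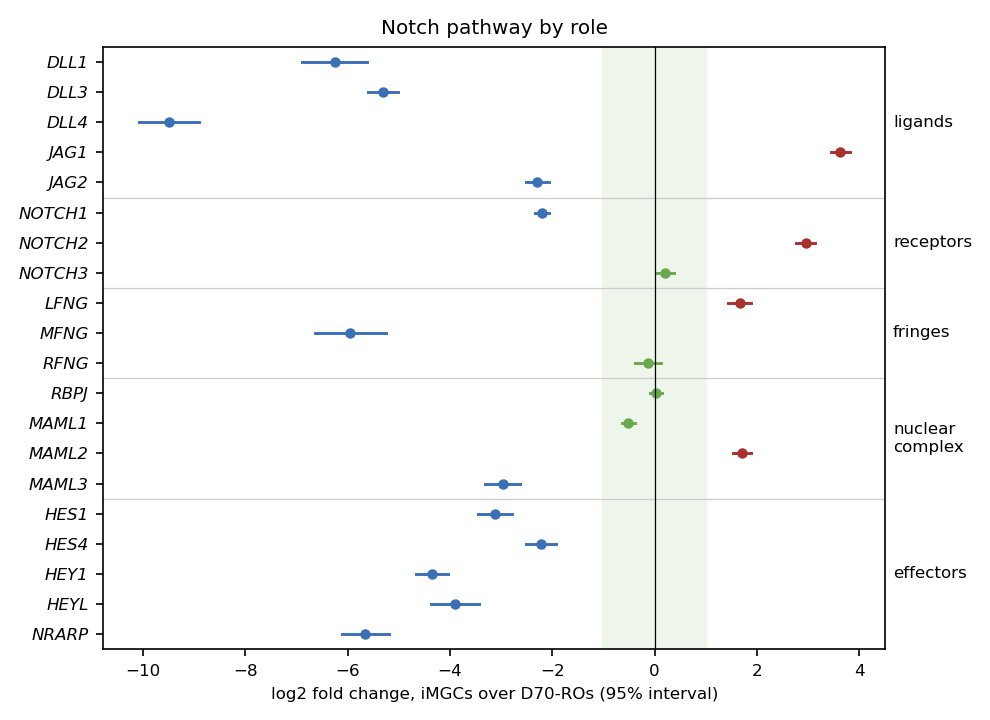
Log2 fold change of iMGCs over D70-ROs with its 95% interval for Notch pathway genes grouped by role, in blue if lower, red if higher and green if held within 2-fold, with the band of 2-fold shaded. HES5, with 1 count in iMGCs, and genes not tested are left out. Delta ligands and all effectors lie to the left, JAG1 and NOTCH2 to the right, and RBPJ at 0.03.

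Genes that mark early developmental time were mostly lower: 6 of 10 tested, 5 of them under 1 FPKM in every iMGC library, with 1 higher and 2 within 2-fold. H19 and MEG3 of the list were not analysed here. TRIM71, a let-7 target of early embryos, was at 3.38, 2.87 and 3.72 FPKM in D70-ROs with 1 count in iMGCs, and DLK1, an imprinted growth regulator, at 6.12, 26.8 and 1.97 FPKM with 3 counts. CRABP1, a retinoic acid-binding protein, was the most abundant member in D70-ROs at 3624, 3941 and 3361 FPKM and had no count in iMGCs, at least 66856-fold lower. LIN28A, which blocks maturation of let-7 microRNAs, was at 1.84, 2.60 and 1.59 FPKM in D70-ROs and 0.12 or less in iMGCs (change -6.77, 95% interval -7.71 to -5.83). LIN28B was at 1.28, 0.91 and 1.83 FPKM in D70-ROs, too low to be tested, and had 2 counts over the iMGC libraries, a ratio with a counting interval from -11.15 to -6.24 on the log2 scale. HMGA1, a chromatin protein of dividing cells, was at 228, 329.5 and 254 FPKM in D70-ROs and 58.2 to 87.3 (median 71.2) in iMGCs (change -1.48, 95% interval -1.72 to -1.23). HMGA2, its relative and a let-7 target active in young stem cells, went the other way, from 6.61, 7.15 and 6.83 FPKM in D70-ROs to 52.3 to 66.1 (median 57.1) in iMGCs (change 3.52, 95% interval 3.36 to 3.69, adjusted p = 1.19e-12 by edgeR). The fetal RNA-binding proteins IGF2BP1, IGF2BP2 and IGF2BP3 were all present. IGF2BP1 was at 21.6, 17.5 and 27.2 FPKM in D70-ROs and 10.6 to 11.8 (median 10.9) in iMGCs (change -0.53, 95% interval -0.75 to -0.32), and with the length trend removed it changed by -1.24 and was no longer within 2-fold. IGF2BP2 was at 31.3, 34.2 and 34.5 FPKM in D70-ROs and 28.6 to 32.6 (median 29.1) in iMGCs, overlapping (change 0.29, 95% interval 0.14 to 0.43). IGF2BP3 was at 19.4, 13.2 and 20.6 FPKM in D70-ROs and 20.4 to 28.4 (median 24.2) in iMGCs, which overlap, and its change of 0.90, 95% interval 0.67 to 1.13 was neither a DEG nor within 2-fold.

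The gliogenic factors were divided by family. Of 14 tested, 6 were higher, 7 lower and none within 2-fold. The nuclear factor I genes, which switch progenitors to gliogenesis and late fates, were higher as a family. NFIA was at 0.19, 0.35 and 0.27 FPKM in D70-ROs and 0.64 to 1.57 (median 1.12) in iMGCs (change 2.68, 95% interval 2.14 to 3.23). NFIB was at 0.91, 0.36 and 0.72 FPKM in D70-ROs and 2.98 to 5.47 (median 3.79) in iMGCs (change 3.84, 95% interval 3.57 to 4.11). NFIX was at 0.17, 0.57 and 0.34 FPKM in D70-ROs and 21.6 to 27.6 (median 24.9) in iMGCs (change 7.06, 95% interval 6.54 to 7.58, adjusted p = 5.18e-11 by edgeR). In D150-ROs the means of NFIA, NFIB and NFIX were 2.34, 15.7 and 27.7 FPKM. NFIC changed by 3.31. NFIA stayed low in absolute level and its call was lost with limma on log2(FPKM + 1), at 0.75. STAT3, the JAK pathway factor of astrocyte and Müller genes, was at 22.9, 25.7 and 24.4 FPKM in D70-ROs and 34.4 to 41.2 (median 38.2) in iMGCs (change 1.07, 95% interval 0.91 to 1.23), a call that was lost with upper-quartile scaling (0.83), at P1 alone (0.96), with limma on FPKM and with the length trend removed. SOX9, a factor that progenitors share with Müller glia, was lower, from 34.1, 40.4 and 32.1 FPKM in D70-ROs to 3.47 to 5.48 (median 4.38) in iMGCs (change -2.58, 95% interval -2.77 to -2.38). SOX8 fell below 1 FPKM in all iMGC libraries. The ID proteins, which block bHLH factors and answer to BMP signals, were lower as a family. ID3 was at 143, 161 and 128 FPKM in D70-ROs and 15.8 to 22.4 (median 19.8) in iMGCs (change -2.45, 95% interval -2.63 to -2.26). ID1 was at 83.2, 71.5 and 76.96 FPKM in D70-ROs and 21.8 to 26.4 (median 23.4) in iMGCs (change -1.24, 95% interval -1.40 to -1.08). ID2 changed by -2.93 and ID4 by -4.15. With the length trend removed the change of ID1 was -0.76 and no longer a call.

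**Figure D4:**
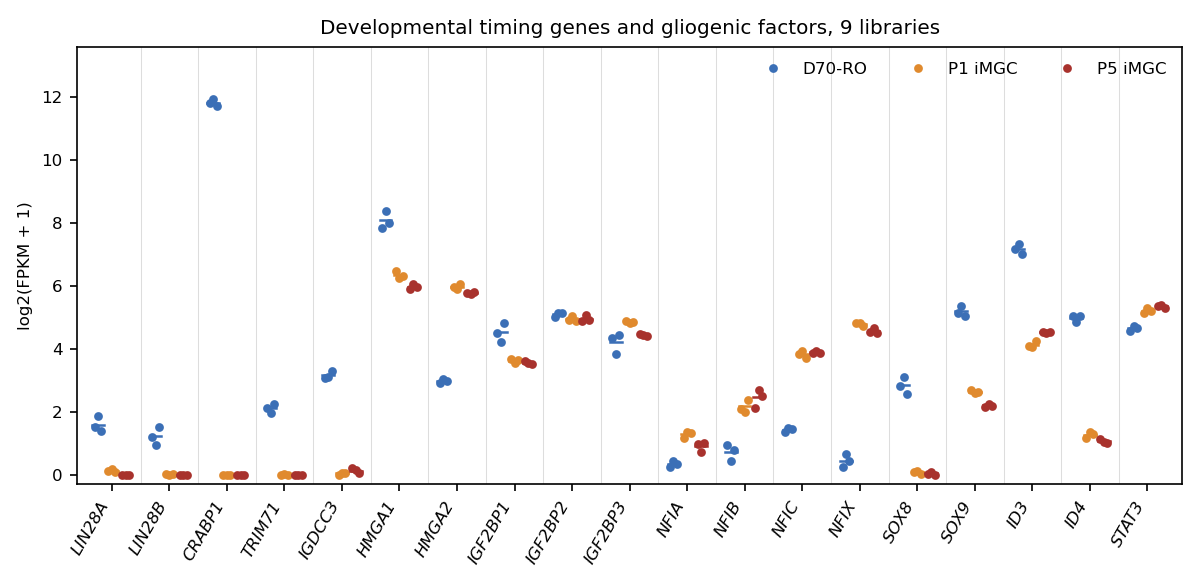
Level of developmental timing genes (left, LIN28A to IGF2BP3) and gliogenic factors (right, NFIA to STAT3) as log2(FPKM + 1) in each of the 9 libraries, with a bar at log2 of the group mean FPKM + 1. CRABP1, LIN28A, LIN28B and TRIM71 fall to 0 or nearly so in iMGCs, IGF2BP1 and IGF2BP2 are held within 2-fold, and HMGA2 and the NFI genes stand above it.

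The cell cycle machinery was reduced but present. Of 20 S phase genes, 15 were lower, 2 within 2-fold and none higher, and no member was under 1 FPKM in all iMGC libraries. Their summed level was 565 to 658 FPKM in D70-ROs and 142 to 171 in iMGCs. TYMS, thymidylate synthase, was at 108, 99.7 and 96.01 FPKM in D70-ROs and 9.07 to 11.99 (median 10.9) in iMGCs (change -2.80, 95% interval -2.95 to -2.64). The replicative helicase subunits MCM2 to MCM7 changed by -2.69 in MCM7 to -1.06 in MCM6, and all 6 were called lower, MCM6 no longer at P1 alone (-0.93) or without D70-RO replicate 1 (-0.99). PCNA, the sliding clamp, was at 99.3, 60.5 and 83.7 FPKM in D70-ROs and 29.4 to 37.4 (median 34.4) in iMGCs. Its change of -0.79, 95% interval -1.03 to -0.55 was no DEG and became one with upper-quartile scaling (-1.02). SLBP, the histone stem-loop binding protein, was held (change 0.20, 95% interval 0.05 to 0.36), at 34.9, 32.9 and 28.1 FPKM in D70-ROs and 25.7 to 27.2 (median 26.3) in iMGCs.

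Of 20 G2 and mitosis genes, 9 were lower, 1 higher and 5 within 2-fold. This balance moved with the scaling: 13 were lower with upper-quartile scaling, 15 with limma on either FPKM scale and 12 with the length trend removed, and 13 were lower at P5 alone, where 24.2% of all genes were. MKI67, the Ki-67 antigen, was at 6.98, 4.42 and 10.4 FPKM in D70-ROs and 3.24 to 4.48 (median 3.51) in iMGCs. The lowest tissue value lay inside the iMGC range, and the change of -0.48, 95% interval -0.88 to -0.09 was within 2-fold in the TMM fit but -1.39 with the length trend removed. TOP2A, topoisomerase II alpha, was at 37.1, 18.6 and 39.4 FPKM in D70-ROs and 7.76 to 10.9 (median 8.705) in iMGCs (change -1.36, 95% interval -1.73 to -0.997). UBE2C, a ubiquitin-conjugating enzyme of mitotic exit, was at 31.2, 40.2 and 36.7 FPKM in D70-ROs and 5.25 to 8.71 (median 8.15) in iMGCs (change -1.77, 95% interval -2.06 to -1.48). CCNB1, cyclin B1, was at 31.5, 33.8 and 34.9 FPKM in D70-ROs and 14.5 to 19.2 (median 15.8) in iMGCs (change -0.60, 95% interval -0.77 to -0.44). TPX2, a spindle assembly factor, was at 41.8, 42.4 and 51.8 FPKM in D70-ROs and 15.6 to 27.02 (median 20.3) in iMGCs (change -0.67, 95% interval -0.85 to -0.49). Both stood lower by FPKM without overlap, were within 2-fold in the TMM fit and were not within 2-fold with limma on FPKM. D70-RO replicate 2 had the lowest level of MKI67, TOP2A and the large kinetochore gene CENPF (5.52, 1.63 and 6.52 FPKM in D70-ROs) among the 3 D70-ROs. CENPE, a large kinetochore motor, was the single higher gene (change 2.41, 95% interval 1.78 to 3.05). It was under 1 FPKM in all 3 D70-ROs and passed the filter only through the iMGCs. Its direction was thus nearly fixed, and its change is a ratio over a low level.

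Of 14 G1 regulators, 5 were within 2-fold (42.5% of all genes were), 4 higher and 4 lower. CCND1, cyclin D1, which retinal progenitors use to enter the cycle, was at 104, 94.9 and 108 FPKM in D70-ROs and 81.5 to 102 (median 96.8) in iMGCs, overlapping ranges with a change of 0.36, 95% interval 0.22 to 0.49. CDK4, its kinase, was at 145, 162 and 126 FPKM in D70-ROs and 62.5 to 68.9 (median 65.7) in iMGCs, with no overlap (change -0.41, 95% interval -0.58 to -0.24), and it was not within 2-fold with limma on FPKM (-1.12). CCND2 was at 12.01, 14.4 and 12.96 FPKM in D70-ROs, 5.32, 4.51 and 5.16 in P1 and 9.18, 8.22 and 7.96 in P5 iMGCs (change -0.55, 95% interval -0.74 to -0.36), and at P1 alone it was not within 2-fold (-0.96). CDK6, the partner kinase, was higher (change 3.82, 95% interval 3.56 to 4.09). CDKN1A (p21), a p53 target, rose from 131, 184 and 111 FPKM in D70-ROs to 284 to 329.6 (median 306) in iMGCs (change 1.57, 95% interval 1.25 to 1.88). CDKN2A, the gene of p16 and ARF that accumulates in cultured cells, was at 0.20, 0.49 and 0.30 FPKM in D70-ROs and 27.8 to 37.4 (median 30.4) in iMGCs (change 7.20, 95% interval 6.72 to 7.67, adjusted p = 1.94e-11 by edgeR). CDKN2B beside it changed by 6.13. The inhibitors that retinal precursors use to leave the cycle, CDKN1B (p27), CDKN1C (p57), CDKN2C and CDKN2D, were lower, with changes of -1.60, -4.01, -1.89 and -3.13.

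**Figure D5:**
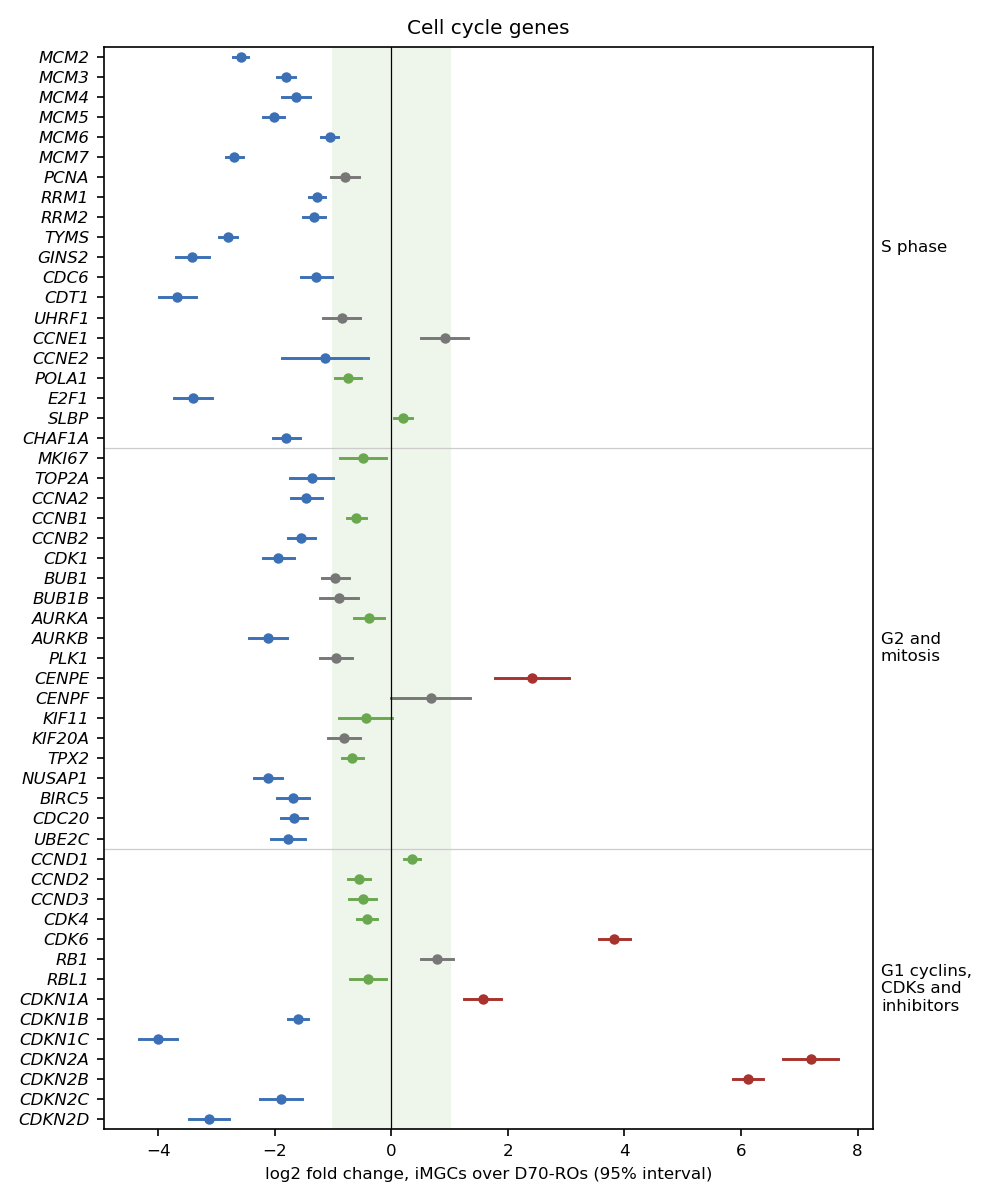
Log2 fold change of iMGCs over D70-ROs with its 95% interval for all 54 genes of the S phase, G2 and mitosis, and G1 lists, in blue if lower, red if higher, green if held within 2-fold and grey if none of these, with the band of 2-fold shaded. S phase genes lie mostly left of the band, mitotic genes lie around its left edge, and CDK6, CDKN2A and CDKN2B lie far to the right.

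The signals that pattern the optic cup were mostly lower. Of 18 FGF and MAPK feedback genes tested, 10 were lower, 2 higher and 3 within 2-fold. FGF19, an FGF of the early human neural retina, was at 15.8, 21.8 and 19.98 FPKM in D70-ROs and had no count in iMGCs, at least 1102-fold lower. Its mean in D150-ROs was 0.387 FPKM. FGF8 and FGF9 fell below 1 FPKM in every iMGC library. FGF2, used widely to keep progenitors and glia dividing, was higher, from 3.60, 2.65 and 4.07 FPKM in D70-ROs to 11.01 to 16.4 (median 14.7) in iMGCs (change 2.41, 95% interval 2.16 to 2.66), and so was FGF1 (change 4.30), which was under 1 FPKM in every D70-RO. The receptor FGFR1 was at 21.3, 28.4 and 19.97 FPKM in D70-ROs and 27.8 to 39.95 (median 33.3) in iMGCs, overlapping (change 0.79, 95% interval 0.52 to 1.05), no DEG with all libraries and one without D70-RO replicate 2 (1.004). The feedback inhibitor SPRY2 was at 41.8, 46.4 and 37.4 FPKM in D70-ROs and 3.17 to 4.82 (median 3.79) in iMGCs (change -2.94, 95% interval -3.14 to -2.74). The ETS factors of the pathway differed: ETV4 was lower (change -1.66) and ETV5 (change -0.12, 95% interval -0.28 to 0.03) and ETV1 (change -0.18, 95% interval -0.40 to 0.04) were within 2-fold.

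Of 10 Hedgehog genes tested, 6 were lower, 2 higher and 2 within 2-fold. The coreceptor CDON was at 96.1, 87.4 and 87.1 FPKM in D70-ROs and 3.56 to 4.40 (median 3.81) in iMGCs (change -4.48, 95% interval -4.62 to -4.34), and the coreceptors BOC and GAS1 were lower too. SMO, the signal transducer, was at 28.8, 37.5 and 27.6 FPKM in D70-ROs and 7.52 to 9.07 (median 8.53) in iMGCs (change -1.43, 95% interval -1.66 to -1.21). GLI2, a transcription factor of the pathway, was within 2-fold, at 5.55, 5.39 and 9.04 FPKM in D70-ROs and 4.39 to 9.30 (median 6.17) in iMGCs, overlapping (change 0.31, 95% interval 0.12 to 0.50). Of the pathway's transcriptional targets, GLI1 (change 4.26) and HHIP (change 4.60) were higher and PTCH1 lower (change -1.76). GLI1 and HHIP were both under 1 FPKM in all 3 D70-ROs, so their changes are ratios over a low level.

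In the WNT list 9 of 13 genes were lower, 3 higher and 1 within 2-fold. SFRP2, a secreted WNT inhibitor of the neural retina, was at 689.8, 649 and 601 FPKM in D70-ROs and 2.81 to 4.58 (median 4.005) in iMGCs (change -6.91, 95% interval -7.15 to -6.66). Its relative SFRP1 went the other way, from 24.3, 27.02 and 23.98 FPKM in D70-ROs to 66.3 to 93.1 (median 78.02) in iMGCs (change 2.07, 95% interval 1.92 to 2.22). FZD5, the WNT receptor of retinal progenitors, was at 46.3, 49.9 and 49.97 FPKM in D70-ROs and 0.47 to 0.83 (median 0.51) in iMGCs (change -5.93, 95% interval -6.17 to -5.69). WNT5A, a non-canonical ligand, rose from 6.21, 4.61 and 6.58 FPKM in D70-ROs to 40.8 to 70.3 (median 57.1) in iMGCs (change 3.21, 95% interval 3.01 to 3.42), and AXIN2, a target of canonical signalling, was lower (change -1.68).

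Of 16 genes that mark dorsal or ventral retina, 11 were lower, 2 higher and 1 within 2-fold, 7 of the 11 under 1 FPKM in every iMGC library. TBX2, a dorsal T-box factor, was at 78.3, 73.2 and 75.2 FPKM in D70-ROs and 1.56 to 3.62 (median 2.30) in iMGCs (change -4.59, 95% interval -4.75 to -4.43). ALDH1A1, the dorsal retinaldehyde dehydrogenase, varied in D70-ROs (43.3, 51.02 and 75.5 FPKM) and was at 0.33 or less in iMGCs (change -7.69, 95% interval -8.22 to -7.16). The dorsal factor TBX5 had no count in iMGCs, and the ventral factor VAX2 was lower (change -3.29). EPHB2, a ventral guidance receptor, was held, at 51.2, 58.7 and 52.04 FPKM in D70-ROs and 39.7 to 42.9 (median 42.4) in iMGCs (change -0.06, 95% interval -0.22 to 0.11). FOXD1, a factor of the temporal retina that is also made in stromal cells of other organs, was at 1.94, 1.71 and 1.17 FPKM in D70-ROs and 40.1 to 43.1 (median 41.9) in iMGCs (change 5.17, 95% interval 4.89 to 5.45), and GDF6, a dorsal BMP-family ligand, changed by 5.14.

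The apical junction and polarity list was held most often of the 14, with 8 of 20 tested within 2-fold, 6 lower and 3 higher, close to the 42.5% of all genes that were held. Of the catenins named here, 2 were held and 1 was lower. CTNNB1 (beta-catenin) was at 210.0, 169 and 199 FPKM in D70-ROs and 127 to 145 (median 132) in iMGCs (change -0.05, 95% interval -0.18 to 0.07). CTNNA1 (alpha-catenin) was at 87.3, 97.5 and 91.8 FPKM in D70-ROs and 82.9 to 91.4 (median 88.97) in iMGCs, overlapping (change 0.46, 95% interval 0.32 to 0.59). CTNNA2, its neural form, was lower (change -4.67). The polarity protein PARD3 was held (change -0.16, 95% interval -0.30 to -0.02) and the junction protein TJP1 was higher (change 1.44). The Crumbs proteins that mark the apical side of progenitors and Müller glia were lower. CRB1 was at 109, 97.4 and 109 FPKM in D70-ROs, 1.09, 0.88 and 1.24 in P1 and 0.28, 0.30 and 0.22 in P5 iMGCs (change -7.38, 95% interval -7.56 to -7.20), and CRB2 was under 1 FPKM in all iMGC libraries. MPP5 and PATJ, partners of Crumbs, were higher, by 1.24 and 1.31 on the log2 scale, and both calls were lost with limma on FPKM and with the length trend removed.

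Across all genes, the 8 largest falls among genes at 10 FPKM or more in every D70-RO included CRABP1 and RAX, given above, and DPYSL5, TRH, SYT4, DOC2B and AMER2, none of which had a count in iMGCs. DPYSL5, a growth cone protein of young neurons, was at 86.5, 85.3 and 99.01 FPKM in D70-ROs, at least 11149-fold above iMGCs. TRH, the gene of thyrotropin-releasing hormone, was at 179.7, 299.9 and 175 FPKM. SYT4 and DOC2B, calcium sensors of vesicle release, were at 77.1, 48.3 and 85.7 and 43.2, 47.04 and 47.3 FPKM, and AMER2, a membrane protein of the WNT pathway, at 28.2, 23.1 and 32.5.

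The 8 largest rises among genes at 10 FPKM or more in every iMGC library were ACTG2, SLAMF7, GBP1, SP100, CPA4, GREM1, SRGN and FN1. FN1, fibronectin, was at 4.66, 3.13 and 3.65 FPKM in D70-ROs and 8173 to 9216 (median 8677) in iMGCs (change 11.75, 95% interval 11.41 to 12.09). GREM1, a secreted BMP antagonist, was at 0.13, 0.46 and 0.06 and 673 to 836 (median 743) FPKM (change 12.51, 95% interval 11.81 to 13.20), and CPA4, a carboxypeptidase, at 0.04, 0.12 and 0 and 218 to 584 (median 388) (change 13.05, 95% interval 12.66 to 13.44). ACTG2, the smooth muscle gamma-actin, had no count in D70-ROs and was at 281 to 472 (median 358) FPKM in iMGCs, at least 9184-fold higher against a floor of 3 counts over the 3 D70-ROs. SLAMF7, a receptor known from lymphocytes, the interferon-inducible GTPase GBP1, the nuclear body protein SP100 and SRGN, a proteoglycan of secretory granules, also had no count in D70-ROs, and stood at 23.5 to 65.8 (median 42.8), 27.2 to 38.2 (median 32.2), 38.4 to 44.1 (median 40.9) and 21.4 to 29.9 (median 26.4) FPKM in iMGCs. In D150-ROs these 4 genes lay at 0.50 FPKM or less in every library.

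The passages were close to each other beside the distance from the tissue. P5 and P1 iMGCs differed by the same test in 418 genes (3.26%) of all tested, and in 21 of 249 progenitor, Müller and other named genes. Of the eye field factors, SIX6, OTX2, NR2E1 and TBX3 stood higher at P5 and LHX2 lower. TBX3, a T-box factor of the dorsal eye and of many other tissues, was at 1.88, 1.13 and 1.76 FPKM in D70-ROs, 0.69, 0.66 and 0.34 in P1 and 1.54, 1.90 and 1.71 in P5 iMGCs, so its P1 values lay below the tissue and its P5 values within or near it. OTX2 and SIX6 at P5 were still far below every D70-RO. Of the stem genes, NES, TNC and MSI1 were lower at P5 than at P1 and SLC1A3 higher. Of the Müller genes, CLU fell from 59.04, 66.2 and 72.8 FPKM at P1 to 18.8, 26.1 and 21.3 at P5, and CRYAB rose from 30.1, 27.8 and 32.7 to 128, 132 and 141. No gene of the S phase, G2 and mitosis, or G1 lists passed the test between passages.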

How the data were processed

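RNA-seq of 9 libraries was analysed: D70-RO, P1 iMGC and P5 iMGC, 3 of each, grouped by their GEO labels. The authors deposited expected counts and FPKM per gene, with the D70-ROs in a table of organoid stages and the iMGCs in a table of passages. The 3 D150-RO libraries, listed also in another table beside the unused columns, carried the same FPKM for every gene in both (0 genes differed), so FPKM did not depend on the table for them. For the D70-ROs and iMGCs no such check could be made. Per the labels and the study's methods, the authors used HISAT2 for mapping, StringTie for assembly and RSEM for FPKM. That the count table holds RSEM's expected counts was read from its values, which the authors deposited with decimals. Tool versions and the genome build are not given in the sources used here. Of 19684 genes, 19659 matched protein-coding identifiers of GENCODE 29, from which positions were taken. Between 8.215% and 10.054% of the expected counts in a library were not whole, and they were rounded before the test. A further 6 columns of per-sample values, for iMGCs without a passage, belong to no labelled sample and were not used. The description of the whole data set names more than 1 sequencing company and a correction between batches, the methods name 1 company, and no label gives a library's batch, so batch and group cannot be told apart. Which values that correction touched is not stated.

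Genes with at least 1 FPKM in at least 3 of the 9 libraries were tested with edgeR 4.0.16 (R 4.3.3; TMM scaling, quasi-likelihood F-test, 3 groups), and the mean of P1 and P5 iMGCs was compared with D70-RO. P-values were adjusted by Benjamini-Hochberg over all genes tested. The test and the interval rule were first tested on simulated data with 200 of 12812 genes changed 4-fold. edgeR called 100% of these with 2 false calls, and 98.33% of unchanged genes lay within 2-fold. Far fewer genes changed there than in these data, and no length trend was simulated. The simulation therefore cannot show how calls depend on scaling or gene length. Alternatives were DESeq2 1.42.0, limma 3.58.1 on log2(FPKM + 1) and log2(FPKM + 0.1), upper-quartile scaling, other filters, a length trend removed by a smooth curve, each passage alone, 1 iMGC group, all 15 libraries, a test against a 2-fold change, a narrower interval, a replicate block and each library left out. The 28 gene lists hold 400 genes. 4 list names had no row: H19 and MEG3 were not analysed here, and PALS1 and INADL are listed as MPP5 and PATJ. The members and lists were chosen with earlier results of these data known. Values are given for the 2 most abundant members of each progenitor list in either arm, a set of core genes and the 8 largest rises and falls at 10 FPKM or more without overlap. Other members were named after their values were seen. A few genes that are counted in the totals are not reported here.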

Additional observations from a re-analysis of the deposited data

Results flagged for a closer look

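The effects at passage 5 and at passage 1, both against the same D70-ROs, differed by edgeR's quasi-likelihood test of the difference itself (adjusted over all 12812 genes, at least 2-fold) in 21 of the 249 genes tested here. All values are the effect at P5 minus that at P1 on the log2 scale. Each rests on 3 libraries a passage, and why the passages differ was not tested.

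NES changed by 0.64 against D70-ROs at P1 and by -1.36 at P5, a difference of -1.996 (adjusted p = 2.09e-07). Among the eye field factors the difference was 2.920 (adjusted p = 6.42e-06) in OTX2, 1.554 (adjusted p = 0.0489) in NR2E1 and 1.700 (adjusted p = 0.00109) in TBX3, all higher at P5, and -1.109 (adjusted p = 0.00229) in LHX2. SIX6 had 2 counts at P1 and 121 at P5. Its fitted difference of 5.756 (adjusted p = 4.06e-05) depends on the prior count, and the counting interval of the ratio runs from 4.10 to 9.04. LIN28A had 16 counts at P1 and none at P5, at least 5.1-fold lower against a floor of 3 counts over the 3 libraries, with a fitted difference of -5.580 (adjusted p = 0.0188) that is no bound. MFNG had 18 counts at P1 and 1 at P5, with a fitted difference of -3.730 (adjusted p = 0.0139) and a counting interval from -9.49 to -1.45.

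Of the other members, the difference was -1.115 (adjusted p = 1.88e-06) in TNC, -1.002 (adjusted p = 0.00703) in MSI1, 1.879 (adjusted p = 0.000442) in SLC1A3, 1.179 (adjusted p = 0.0101) in HEY1 and 1.470 (adjusted p = 0.000348) in SOX6. It was -1.435 (adjusted p = 8.13e-06) in DUSP4, 1.190 (adjusted p = 0.00356) in TCF7L1, -1.166 (adjusted p = 0.0239) in LGR5 and -1.898 (adjusted p = 1.46e-05) in CRB1 in the signalling and junction lists, and -1.634 (adjusted p = 0.000197) in CLU and 2.139 (adjusted p = 8.58e-08) in CRYAB among the Müller genes. Of the genes with the largest rises over the tissue, SLAMF7 and CPA4 were lower at P5, with -1.376 (adjusted p = 1.47e-06) and -1.222 (adjusted p = 2.09e-06), and both stayed far above D70-ROs at either passage.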

How the results depend on the processing

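The counts of genes lower in iMGCs, over all genes and over the progenitor lists together, were within 1.5 times of their value under every alternative tried. Of the single progenitor lists, G2 and mitosis moved further, from 9 lower to 15 with limma on either FPKM scale. The number higher in iMGCs fell from 2741 to 1565 with limma on log2(FPKM + 1), which places iMGCs lower over all genes. Higher and lower calls were 2226 and 3730 with upper-quartile scaling (37.4% higher), 1565 and 3883 with limma on log2(FPKM + 1) (28.7%) and 1860 and 4433 with limma on log2(FPKM + 0.1) (29.6%), against 46.9% in the reported fit. With the interval required to lie within 1.5-fold in place of 2-fold, 2736 of all genes and 19 of the progenitor genes were held. Leaving out each of the 9 libraries in turn gave 2652 to 2812 higher, 3024 to 3143 lower and 5165 to 5853 held within 2-fold, and among progenitor genes 34 to 38, 133 to 134 and 36 to 42. DESeq2 called 5808 of the 5844 DEGs in the same direction.

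Of 217 single genes followed through the alternatives, 162 kept their call or their place within 2-fold in all of them, as did 4601 of 4774 values. The values that changed sign belonged to genes that were not DEGs. TBX3 was at 0.004 with the 6 iMGC libraries as 1 group and at 0.611 at P5 alone, SOX6 at 0.553 and VAX1 at 0.224 at P5 alone, and FGFR2 at -0.158 at P5 alone. FGFR2 was at -0.236 and -0.449 with limma on log2(FPKM + 1) and log2(FPKM + 0.1), and CENPF at -0.019 with the length trend removed. VAX1 ran from -0.745 without D70-RO replicate 1 to 0.420 without D70-RO replicate 2. The cause of these changes was not tested.

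Replicate numbers are shared across groups in the labels, and no strong pairing of the libraries was seen. The deviations of same-numbered libraries from their group means correlated at -0.031 to 0.119 (9 pairs). Those of other numbers correlated at -0.135 to 0.056 (18 pairs). So few pairs cannot exclude a weak pairing. A fit with the replicate block gave 2765 higher and 3092 lower, with 34 and 133 among progenitor genes and 39 of them within 2-fold, and it changed the call of none of the 217 genes.

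Depth limits the genes near 0. For those with no count the fall is a bound set by 3 counts over the group, and intervals on counts cover counting error only. D70-ROs come from pooled organoids of 1 line, the arms differ in age, culture form and medium, and no label gives the sequencing batch of a library.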

Other observations

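A search, made after the values were seen, for genes held within 2-fold, at 10 FPKM or more in all 9 libraries, with no difference called between passages and under 1 FPKM in all 3 hiPSC libraries found 5 genes, none of them in a progenitor list. ZEB2, a transcription factor of neural crest, mesenchyme and neurons, was at 34.04, 32.51 and 41.25 FPKM in D70-ROs, 17.11 to 18.43 in iMGCs and 0.36 to 0.41 in hiPSCs. ZHX1, a zinc finger and homeobox repressor, was at 27.27, 13.03 and 28.80 FPKM in D70-ROs, 11.80 to 14.63 in iMGCs and 0.61 to 0.93 in hiPSCs. LMOD1, the smooth muscle actin nucleator leiomodin, was at 14.18, 14.43 and 16.60 FPKM in D70-ROs, 15.13 to 20.69 in iMGCs and 0.88 to 0.98 in hiPSCs. TBC1D9, a Rab GTPase-activating protein, and SFXN3, a mitochondrial carrier, were the others, at a mean of 24.8 and 12.4 FPKM in D70-ROs and 13.99 and 15.5 in iMGCs. ZHX1 was lowest in D70-RO replicate 2. The FPKM of iMGCs and D70-ROs overlapped in ZHX1 and in LMOD1. Levels are FPKM as the authors computed them.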
